A study of Mus musculus with 6 samples.

Results

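The 10 genes described here encode transcription factors of the immediate-early response: the AP-1 subunits Fos, Fosb, Fosl2, Jun, Junb and Jund, the zinc finger factor Egr1, and the orphan nuclear receptors Nr4a1, Nr4a2 and Nr4a3. They were chosen by symbol, and all 10 were found among the 56691 genes of the count table. Bulk RNA-seq was done on inguinal white fat (iWAT), a subcutaneous depot, taken from male C57BL/6J mice. Housing began when the 6 animals were 8 weeks of age and lasted 8 weeks. The 3 group-housed mice lived with 4 to 6 mice per cage, and the 3 single-housed mice with 1 per cage, a model of social isolation. The strain is wild type, no transgene or drug was used, and each mouse gave 1 library. Shared cages or litters are not described, so p-values measure the spread between these mice only.

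Immediate-early genes are transcribed within minutes of a stimulus from factors that are already present in the cell, and their transcripts are short-lived. AP-1 is a dimer of basic leucine zipper proteins, in which FOS proteins pair with JUN proteins and JUN proteins also pair with each other. EGR1 binds GC-rich sites, and the NR4A proteins act without a known physiological ligand. In adipocytes, noradrenaline acts through beta-adrenergic receptors, cAMP and protein kinase A on the factor CREB, for which NR4A genes and Fos are textbook targets. Growth factors reach Fos and Egr1 through ERK kinases and serum response factor, and Jun and Junb also respond to stress and cytokine signals.

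CREB binds the cAMP response element, whose core TGACG was searched on both strands (TGACG or CGTCA) in the 250 bases before the annotated start of each gene. RefSeq promoter sequences of build GRCm38.p6 were matched by symbol for 9 of the 10 genes, and Egr1 was not analysed here in this respect. Each of the 3 NR4A promoters held 4 cores, while 0.137% of 32851 mouse promoter windows held 4 or more and 17.8% held at least 1. Fos held 2, Fosb and Junb 1 each, and Fosl2, Jun and Jund 0. The NR4A sequences are shown because all 3 carry the same number of cores while their levels stood on different sides of the housing comparison, and Fos because its level varied most between mice. Capitals mark the cores. The windows are chr15:101266596-101266845 (plus strand), chr2:57124004-57124253 (minus strand), chr4:48045055-48045304 (plus strand) and chr12:85473640-85473889 (plus strand), each 5′ to 3′.
Nr4a1: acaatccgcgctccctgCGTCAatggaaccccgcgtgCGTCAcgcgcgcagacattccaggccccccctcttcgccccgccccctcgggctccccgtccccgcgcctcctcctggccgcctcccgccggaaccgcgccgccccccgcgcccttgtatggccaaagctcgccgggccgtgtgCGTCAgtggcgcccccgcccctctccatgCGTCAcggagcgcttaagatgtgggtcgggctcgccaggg
Nr4a2: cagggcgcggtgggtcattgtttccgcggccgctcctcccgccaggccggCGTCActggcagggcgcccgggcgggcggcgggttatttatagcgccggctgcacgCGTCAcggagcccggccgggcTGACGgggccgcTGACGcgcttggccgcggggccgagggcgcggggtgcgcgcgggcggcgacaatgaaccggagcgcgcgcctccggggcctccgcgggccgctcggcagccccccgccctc
Nr4a3: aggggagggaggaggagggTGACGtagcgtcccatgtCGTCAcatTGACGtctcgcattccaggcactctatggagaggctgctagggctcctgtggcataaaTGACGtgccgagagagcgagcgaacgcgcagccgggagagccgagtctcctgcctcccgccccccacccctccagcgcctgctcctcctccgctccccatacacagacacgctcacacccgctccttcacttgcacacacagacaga
Fos: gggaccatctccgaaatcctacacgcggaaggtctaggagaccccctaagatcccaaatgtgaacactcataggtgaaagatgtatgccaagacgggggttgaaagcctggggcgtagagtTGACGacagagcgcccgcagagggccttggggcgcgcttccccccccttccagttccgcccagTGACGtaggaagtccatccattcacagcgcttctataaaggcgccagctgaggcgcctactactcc

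In Nr4a1 the cores began 233, 213, 69 and 40 bases before the start. In Nr4a2 they began 200, 144, 123 and 111 bases before it, and in Nr4a3 231, 213, 205 and 147 bases before it. In Fos the cores began 129 and 66 bases before the start. The complete palindrome TGACGTCA, which would count as 2 overlapping cores, was in none of the 9 windows and in 1.55% of all windows. The AP-1 site TGANTCA (6.75% of all windows), the NR4A site AAAGGTCA (1.34%) and the CArG box of serum response factor (1.47%) were also in none of the 9 windows, each searched on both strands. The EGR site GCGNGGGCG (4.7% of all windows) occurred once each in Fosb, Fosl2, Nr4a1 and Nr4a2. A match describes letters in the window and is not a binding measurement. Sites beyond these 250 bases, and variants with other letters, were not searched, so a gene without a match may still have such a site.

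The libraries held between 21410779 and 35318376 counts. Genes at an adjusted p below 0.05 in edgeR's quasi-likelihood test (Benjamini-Hochberg over all 18085 genes tested) numbered 0, and 1259 had an unadjusted p below 0.05. Single-housed library 3 and group-housed library 2 held the most skeletal muscle transcripts. Their muscle markers had a mean of 8.59 and 6.74 log2 CPM (counts scaled to a common library total). The mean was 5.12 log2 CPM in group-housed library 1 and 1.74 to 2.23 log2 CPM in the other libraries. The B and plasma cell markers were lowest in single-housed library 3. The pad holds a lymph node, but whether these transcripts came from it was not tested. Adipocyte markers were high in every library, with a summed level of 6181 to 11652 FPKM (counts scaled to exon length and library total). For the immediate-early genes described here, log2 fold changes that moved by over 1.5 times without single-housed library 3 or group-housed library 2 are given both ways. Shares within a gene family are not all given both ways. In a whole fat pad, fewer cells of a type and less RNA per cell cannot be told apart.

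None of the 10 genes passed the test between housing conditions. All 10 passed the filter on low counts, 0 had an adjusted p below 0.05 in edgeR (background 0% of all genes) and 0 in DESeq2 (background 1.15%). At an unadjusted p below 0.05 there were 2, Junb (lower in single housing) and Nr4a2 (higher), where 6.96% of all genes had one. The log2 fold change of single against group housing was below 0 for 7 of the 10, against 51.9% of all genes, with a median of -0.27 against -0.01. In FPKM the 3 values of one condition lay wholly beyond those of the other for 5 genes (background 13.9%). Junb, Jund, Egr1 and Nr4a3 were lower in single housing, where the background in that direction was 9.01%, and Nr4a2 was higher, where it was 4.86%. After TMM scaling, which corrects for library composition, 4 of the 5 remained apart and Egr1 overlapped (background 13.4%).

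**Figure D1:**
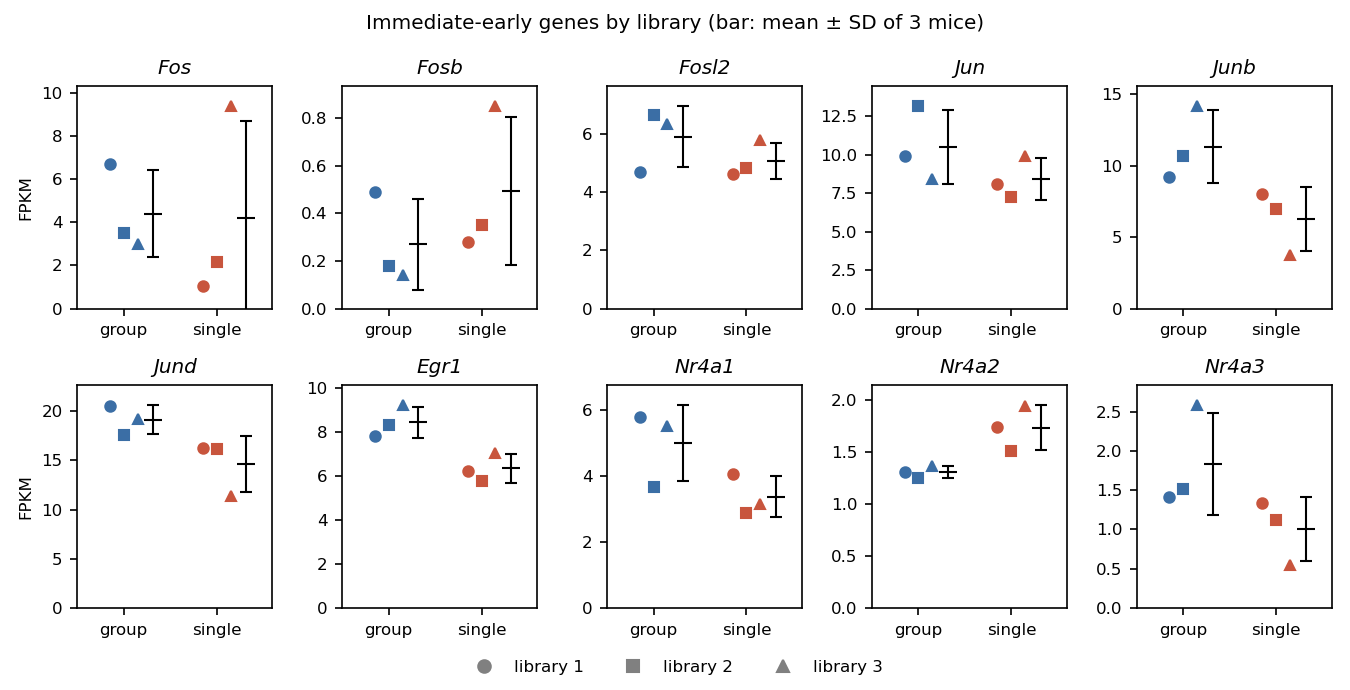
FPKM of each of the 10 genes in the 3 group-housed (blue) and 3 single-housed (red) libraries, with the symbol giving the library number and the black bar the mean ± SD. Junb, Jund, Egr1 and Nr4a3 lay lower in all 3 single-housed libraries, Nr4a2 lay higher, and Fos ran from 1.07 to 9.37 within single housing, where its SD bar extends below the axis.

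The Jun family held the most abundant members. Jund, the subunit that is present without stimulation in most tissues (mm39 chromosome 8, 71151599 to 71153265), measured 20.55, 17.61 and 19.19 FPKM in libraries 1 to 3 of group housing, and 16.31, 16.19 and 11.35 FPKM in libraries 1 to 3 of single housing. The groups did not overlap, and single-housed library 3 was lowest. Its log2 fold change was -0.31 ± 0.13 (SE, n = 3 each; edgeR adjusted p = 0.724), and -0.20 without that library. Junb, an AP-1 subunit that often restrains c-JUN and is induced by cytokines (chromosome 8, 85701113 to 85705347), stood at 9.19, 10.67 and 14.16 FPKM under group housing and at 8.02, 7.0 and 3.75 FPKM under single housing. Each single-housed value lay below each group-housed value, and the lowest was again library 3. Junb had the smallest unadjusted p of the 10 genes, with a log2 fold change of -0.78 ± 0.26, a 1.72-fold difference (edgeR adjusted p = 0.622, DESeq2 adjusted p = 0.239). Without single-housed library 3 it was -0.55. Junb overlaps Prdx2, which has many reads, on the opposite strand, and no source used here says if reads were assigned by strand, so its counts may hold reads of Prdx2.

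Jun, which encodes c-JUN (chromosome 4, 94937271 to 94940459), stood at 9.93, 13.14 and 8.42 FPKM under group housing and at 8.12, 7.22 and 9.92 FPKM under single housing. These groups overlapped, the highest level being in group-housed library 2. The log2 fold change was -0.23 ± 0.25 (edgeR adjusted p = 0.879), and it was 0.02 without that library and -0.43 without single-housed library 3. The antisense gene Junos overlaps Jun but held few reads in all.

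The Fos family varied more between mice of one condition than between conditions. Fos, which encodes c-FOS and is the classical marker of recent stimulation (chromosome 12, 85520664 to 85524047), measured 6.71, 3.5 and 2.98 FPKM under group housing and 1.07, 2.14 and 9.37 FPKM under single housing. The lowest and the highest of the 6 values were both in single housing, 8.76-fold apart, in libraries 1 and 3. The log2 fold change was 0.09 ± 0.80 (edgeR adjusted p = 0.985). Without single-housed library 3 it was -1.44 ± 0.45 (edgeR adjusted p = 0.669), since the other 2 single-housed levels lay below all 3 group-housed ones. Without group-housed library 2 it was -0.018. No direction can therefore be given for Fos. Fosb, a family member known for stable isoforms that build up with repeated stimulation in the brain (chromosome 7, 19036621 to 19043976), was the lowest of the 10 genes, with 25 to 132 counts per library. It stood at 0.49, 0.18 and 0.14 FPKM under group housing and at 0.28, 0.35 and 0.85 FPKM under single housing, with group-housed library 1 inside the single-housed range. Its log2 fold change was 1.02 ± 0.64 (edgeR adjusted p = 0.824) and 0.28 without single-housed library 3.

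Fosl2, which encodes FRA-2, a FOS protein that lacks the strong activation domain of c-FOS (chromosome 5, 32293145 to 32315186), was the steadiest of the tested Fos family. Its levels were 4.7, 6.65 and 6.33 FPKM under group housing and 4.6, 4.82 and 5.77 FPKM under single housing. The groups overlapped, and the log2 fold change was -0.12 ± 0.20 (edgeR adjusted p = 0.916), moving to 0.03 without group-housed library 2 and to -0.29 without single-housed library 3. Fosl1, the remaining family member, had 1 to 6 counts per library and did not pass the filter on low counts.

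Egr1, the early growth response factor that ERK signalling induces (chromosome 18, 34992876 to 34998037), stood at 7.81, 8.3 and 9.21 FPKM under group housing and at 6.23, 5.77 and 7.03 FPKM under single housing. All 3 single-housed levels were below all 3 group-housed levels, and the spread within each condition was small. The log2 fold change was -0.31 ± 0.15, a 1.24-fold difference (edgeR adjusted p = 0.747). On the TMM-scaled scale single-housed library 3 (5.15 log2 CPM) lay above group-housed library 1 (5.09 log2 CPM), so the separation depended on the scaling.

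The 3 NR4A genes, which carry the same number of cAMP response element cores in the printed windows, did not share a direction. Nr4a1, also called NUR77 (chromosome 15, 101152150 to 101172676), stood at 5.79, 3.68 and 5.52 FPKM under group housing and at 4.07, 2.89 and 3.15 FPKM under single housing. Group-housed library 2 lay inside the single-housed range. The log2 fold change was -0.47 ± 0.20 (edgeR adjusted p = 0.727). Nr4a3, also called NOR1 (chromosome 4, 48045153 to 48086447), measured 1.41, 1.51 and 2.58 FPKM under group housing and 1.34, 1.12 and 0.55 FPKM under single housing. The groups did not overlap, although group-housed library 1 and single-housed library 1 were close. Its log2 fold change of -0.79 ± 0.33, a 1.73-fold difference, was the lowest of the 10 (edgeR adjusted p = 0.718). It was -0.53 without single-housed library 3 and -0.52 without group-housed library 3. The 6 libraries had the same order from low to high for Nr4a3 as for Junb, from single-housed 3, 2 and 1 to group-housed 1, 2 and 3.

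Nr4a2, also called NURR1 (chromosome 2, 56996842 to 57014015), stood on the other side. Its levels were 1.31, 1.25 and 1.36 FPKM under group housing and 1.74, 1.51 and 1.94 FPKM under single housing. All single-housed values were above all group-housed ones, and the group-housed values differed by only 1.09-fold. The log2 fold change was 0.50 ± 0.20, a 1.42-fold difference (edgeR adjusted p = 0.699, DESeq2 adjusted p = 0.444). It was above 0 in all 18 alternative fits, between 0.24 and 0.63.

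**Figure D2:**
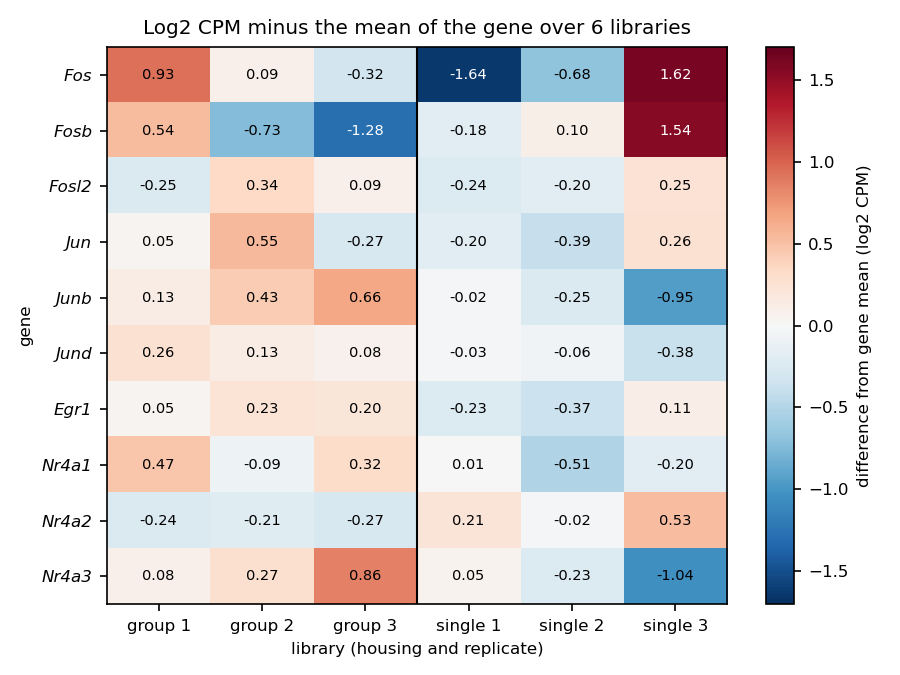
Log2 CPM of the 10 genes (rows) in the 6 libraries (columns), each as the difference from the mean of that gene, with red above and blue below it. In single-housed library 3, Fos and Fosb stood 1.62 and 1.54 above their means while Junb and Nr4a3 stood 0.95 and 1.04 below theirs.

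The 10 genes did not vary as a block across the libraries, as the plot of differences from each gene mean shows. Averaged over the 10, the difference was 0.20, 0.10 and 0.01 log2 CPM in group-housed libraries 1, 2 and 3 and -0.23, -0.26 and 0.17 in single-housed libraries 1, 2 and 3. Single-housed library 3 held the highest FPKM of 3 genes, Fos, Fosb and Nr4a2, and the lowest of 3 others, Junb, Jund and Nr4a3. Single-housed library 2 was above the mean of a gene for 1 of 10 and group-housed library 1 for 8 of 10. The within-condition SD of Fos was 1.27 log2 CPM, larger than that of 98.6% of the 3925 genes within 1 log2 unit of its abundance. That of Fosb, 0.93, was larger than that of 95.1% of such genes. Egr1 (0.19) and Nr4a1 (0.28) were at 52.3% and 63.4%, and Jund (0.15) and Nr4a2 (0.20) were below the middle at 38.9% and 26.2%. Jun (0.37), Junb (0.39), Nr4a3 (0.49) and Fosl2 (0.28) also varied more than most genes of like abundance, at 85.0%, 83.4%, 83.4% and 76.0%. Egr1 was the member closest to the average course, with a root mean square difference of 0.12 log2 CPM, and Fos the farthest at 0.90.

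Among genes averaging 1 FPKM or more, those closest to the average course of the 10 were Ahsa1, Mfap1b, P3h3, Mfsd5, Siva1 and Ftl1. Over the 6 libraries their root mean square differences from it were 0.06 to 0.07 log2 CPM. Their log2 fold changes ran from -0.29 (Siva1) to -0.09 (Mfsd5). The genes were picked for likeness to that course, so these values follow from the choice and test nothing. None passed the edgeR test (smallest adjusted p = 0.829), but no other gene passed it either.

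Per exon length, the order of levels was similar in both conditions at its ends. Under group housing Jund was highest at 19.1 ± 1.47 FPKM (SD, n = 3), followed by Junb (11.3 ± 2.55), Jun (10.5 ± 2.41) and Egr1 (8.44 ± 0.71), of which Junb and Jun, and Jun and Egr1, overlapped. Fosl2 (5.89 ± 1.05), Nr4a1 (5.0 ± 1.15) and Fos (4.40 ± 2.02) also overlapped as neighbours. Nr4a3 (1.83 ± 0.65), Nr4a2 (1.31 ± 0.06) and Fosb (0.27 ± 0.19) each lay wholly below the gene before. Under single housing Jund stood at 14.6 ± 2.83 FPKM and Jun at 8.42 ± 1.37, each without overlap with the gene next in rank, although Jun overlapped Junb and Fos further down. Egr1 (6.34 ± 0.64), Junb (6.26 ± 2.23), Fosl2 (5.06 ± 0.62), Fos (4.19 ± 4.51) and Nr4a1 (3.37 ± 0.62) overlapped from each to the next. Nr4a2 (1.73 ± 0.22) now stood above Nr4a3 (1.0 ± 0.41) without overlap, and Fosb (0.49 ± 0.31) overlapped Nr4a3.

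Shares within a family do not depend on the scaling between libraries. Nr4a2 held a larger share of the NR4A total in every single-housed library. Of the summed NR4A FPKM, Nr4a2 made up 15.4%, 19.4% and 14.4% in the group-housed and 24.3%, 27.4% and 34.4% in the single-housed libraries. All 3 single-housed shares were higher, by 12.3 percentage points on average. The two-sided exact permutation p was 0.1, the smallest that 3 against 3 allows, and 0.333 after Benjamini-Hochberg adjustment over 10 shares. Nr4a1 made up 61.2% ± 5.97 and 55.0% ± 2.39 (SD, n = 3 each; exact permutation p = 0.1, adjusted 0.333) and Nr4a3 22.4% ± 5.42 and 16.3% ± 5.69 (exact permutation p = 0.3, adjusted 0.6).

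In the Jun family Jund made up 46.8% ± 4.70 under group and 49.6% ± 3.98 under single housing, and Junb 27.6% ± 5.60 and 20.9% ± 5.20, without separation (exact permutation p = 0.5 and 0.2). The summed Jun family measured 39.67, 41.42 and 41.77 FPKM under group and 32.45, 30.41 and 25.02 FPKM under single housing, with the groups apart. Unlike shares, these sums depend on the scaling between libraries, and they were not compared after TMM scaling. In the Fos family the leading gene changed from mouse to mouse. Fos made up 56.3% in group-housed library 1 and 58.3% in single-housed library 3, whereas Fosl2 led in the other 4 libraries with 63.6% to 77.2%. Fosb made up 2.43% ± 1.46 and 4.92% ± 0.32, with the groups apart (exact permutation p = 0.1, adjusted 0.333). As shares of counts, Fosb and Nr4a1 overlapped (exact permutation p = 0.3 and 0.6). Without group-housed library 1 the Nr4a1 difference moved from -6.13 to -2.70 percentage points.

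**Figure D3:**
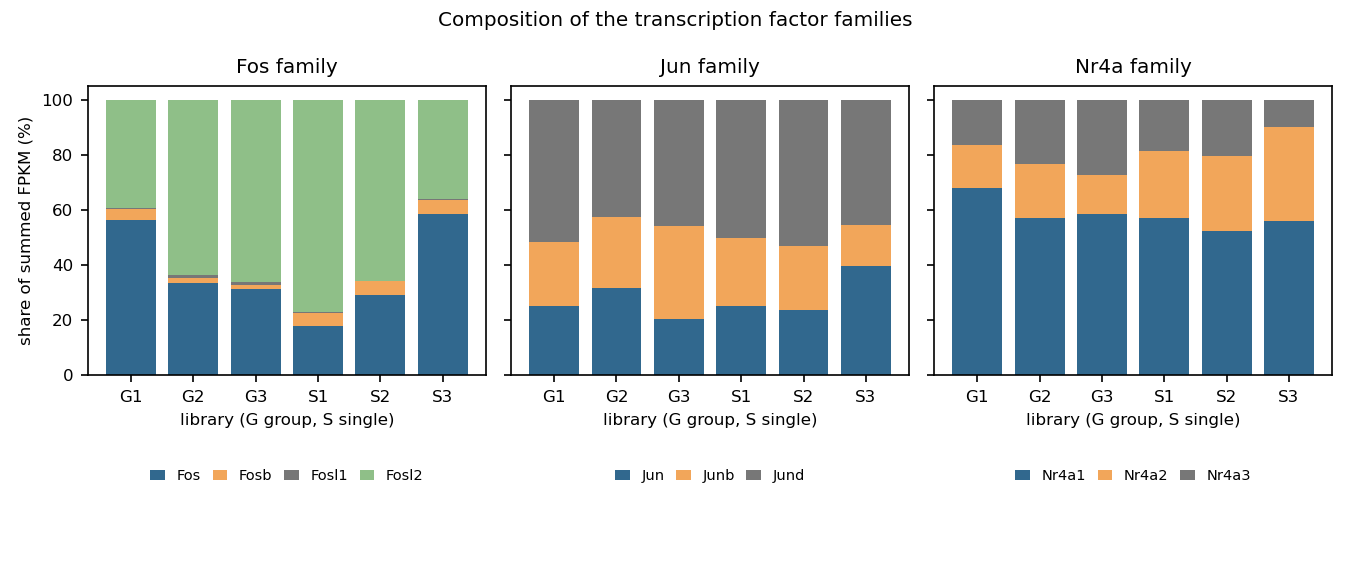
Share of each gene in the summed FPKM of its family (%, stacked bars) in each library, G for group and S for single housing. The Nr4a2 share is 14.4% to 19.4% in the group-housed and 24.3% to 34.4% in the single-housed libraries, while the Fos share follows no housing order.

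Skeletal muscle content differed widely between the libraries. The 15 muscle markers summed to 57.1 to 1526 FPKM in group-housed and 60.6 to 4167 FPKM in single-housed libraries, with the highest sum in single-housed library 3, where Fos and Fosb were highest and Junb and Nr4a3 lowest. In group-housed library 2, next in muscle content, Fos, Fosb, Junb and Nr4a3 were neither highest nor lowest. Group-housed library 1 followed with a muscle marker sum of 381 FPKM. There Fos (6.71 FPKM) and Fosb (0.49 FPKM) were the next highest after single-housed library 3. Junb (9.19 FPKM) and Nr4a3 (1.41 FPKM) were the lowest of the group-housed libraries. Whether these genes follow muscle content was not tested. With the muscle marker level as a covariate, edgeR called 2 of the 10 genes (background 6.33%, and 3.33% for genes lower in single housing). They were Junb, whose log2 fold change was -0.84 ± 0.15 (edgeR adjusted p = 0.0166), and Nr4a3, with -0.85 ± 0.17 (edgeR adjusted p = 0.0245). Without both muscle-rich libraries (group-housed 2 and single-housed 3) these were -0.56 ± 0.20 (edgeR adjusted p = 0.336) and -0.62 ± 0.27 (edgeR adjusted p = 0.431). In that fit, which kept group-housed library 1, 0 of the 10 were called (background 0.0743% for genes lower in single housing). With the B cell marker level as a covariate 0 of the 10 were called (background 2.27%, and 1.52% for genes lower in single housing). With the muscle marker level as a covariate, Fos stood at -0.41 ± 0.40 (edgeR adjusted p = 0.581). Without both muscle-rich libraries it stood at -1.56 ± 0.47 (edgeR adjusted p = 0.264).

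**Figure D4:**
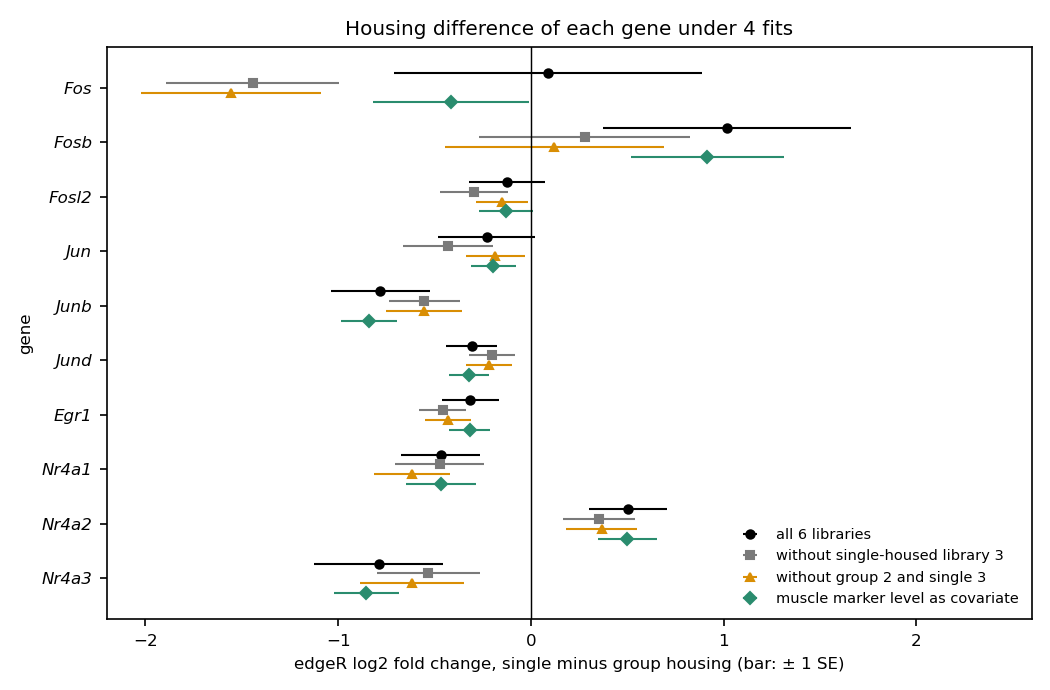
Log2 fold change of each gene, single minus group housing, with ± 1 SE bars, in the fit of all 6 libraries and in 3 alternatives. Junb, Jund, Egr1, Nr4a1 and Nr4a3 stay below 0 and Nr4a2 above 0 in the 4 fits shown, whereas Fos moves from 0.09 to -1.56.

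Markers of other cell types that express immediate-early genes were also counted. EdgeR called 0 genes of any marker list, as it called 0 of all 18085 genes tested. DESeq2 (background 1.15%) called 3 macrophage and monocyte and 3 neutrophil and mast cell markers lower in single housing. It called 7 brown and beige adipocyte markers and 1 Schwann cell marker higher, and no marker of the other lists. Of 15 macrophage and monocyte markers, 13 had a log2 fold change below 0 (median -0.44), with overlapping sums of 962 to 1421 FPKM in group-housed and 677 to 989 FPKM in single-housed libraries. Of 9 tested neutrophil and mast cell markers 8 were below 0 (median -0.50; 61.2 to 118 against 35.6 to 51.3 FPKM). Of 10 endothelial markers 9 were above 0 (median 0.50; 161 to 180 against 189 to 226 FPKM). B and plasma cell markers had a median of -0.32, T and NK cell markers -0.10, smooth muscle and pericyte markers 0.18 and adipocyte markers 0.14. Of 9 tested adipose progenitor markers 7 were below 0 (median -0.16), with sums narrowly apart (370.8 to 490.5 against 248.7 to 369.4 FPKM). Brown and beige adipocyte markers had a median of 1.28 (300 to 405 against 671 to 1040 FPKM) and Schwann cell markers of 0.47. Red blood cell markers had a median of 0.18, and keratinocyte and mammary markers were near 0 FPKM, with a sum of 2.17 to 3.97 FPKM. No marker of these lists was at 0 counts in all 6 libraries. The part of these cell types in the levels of the 10 genes was not tested.

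Other genes of the same response stood mostly on the low side under single housing without passing the edgeR test. Of 50 other immediate-early and primary response genes tested, 35 had a log2 fold change below 0 and 15 above 0 (median -0.20, against -0.01 for all genes). None was called by edgeR. An unadjusted p below 0.05 was found for 7 on the low and 1 on the high side (background 3.47% and 3.49%). DESeq2 called 2 lower (background 0.714%), Zfp36 and Socs3. Zfp36, whose product binds AU-rich elements and speeds the decay of cytokine and Fos transcripts, stood at 27.68, 26.62 and 28.1 FPKM under group housing and at 19.49, 19.72 and 14.43 FPKM under single housing. The groups were far apart compared with their spread, and the log2 fold change was -0.54 ± 0.12 (edgeR adjusted p = 0.359, DESeq2 adjusted p = 0.00712). Socs3, a feedback inhibitor of cytokine receptors, differed by -1.43 ± 0.36 on the log2 scale (edgeR adjusted p = 0.469, DESeq2 adjusted p = 0.0165). Ptgs2, the inducible cyclooxygenase, was scarce at 0.31 ± 0.08 and 0.13 ± 0.01 FPKM, with 14 to 62 counts per library. Ier2, an immediate-early gene that is often induced with Fos, measured 11.82, 12.82 and 14.81 FPKM under group and 12.26, 12.04 and 8.63 FPKM under single housing, with overlapping groups.

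Among 12 tested dimer partners and related basic leucine zipper factors 8 were below 0 (median -0.29) and 0 were called. Batf3, a dendritic cell factor, stood at 5.15 ± 1.72 FPKM under group and 2.97 ± 0.80 FPKM under single housing, with overlapping groups (edgeR adjusted p = 0.717). Atf3, a stress-induced partner of JUN proteins, stood at 2.59, 1.43 and 2.14 FPKM under group housing and at 1.3, 1.11 and 1.37 FPKM under single housing. Its groups did not overlap, and its log2 fold change was -0.60 ± 0.27 (edgeR adjusted p = 0.734). Of the 4 tested EGR factors and NAB corepressors, 3 were below 0 (median -0.20), with 0 called and 0 at an unadjusted p below 0.05.

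Of the upstream signalling genes none was called. The median log2 fold change was 0.02 for 19 tested kinases that act on AP-1, 0.02 for 6 serum response factor, ternary complex and MRTF genes, and -0.01 for 15 CREB, CRTC and protein kinase A genes. Only the kinase list had genes at an unadjusted p below 0.05, Map2k6, an activator of p38 (2.20 ± 0.46 and 3.37 ± 0.17 FPKM; log2 fold change 0.70 ± 0.19), and Rps6ka2, an ERK-activated kinase (0.78 ± 0.32), both higher in single housing. Of 10 tested partners and repressors of NR4A, the coactivator Ncoa1 had an unadjusted p below 0.05, with a log2 fold change of 0.30 ± 0.11, and the median was 0.06.

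The feedback inhibitors of MAP kinases had a median of -0.02 over 16 genes, where an unadjusted p below 0.05 was found for 2 on the low side (background 3.47%) and 2 on the high side (background 3.49%). Dusp6, the phosphatase of ERK, measured 18.56, 16.41 and 21.97 FPKM under group and 14.36, 13.59 and 12.67 FPKM under single housing, with the groups apart (log2 fold change -0.39 ± 0.11; edgeR adjusted p = 0.526). Dusp5, a nuclear ERK phosphatase, had a log2 fold change of -0.88 ± 0.36, and Dusp14, with 8 to 53 counts per library, one of 1.03 ± 0.40. Dusp1, itself an immediate-early gene, measured 12.3, 10.58 and 11.35 FPKM under group and 7.63, 6.36 and 12.81 FPKM under single housing. It overlaps Ergic1, which has many reads, on the opposite strand. As with Fos, its highest value was in single-housed library 3 and its lowest 2 were the other single-housed ones (log2 fold change -0.24 ± 0.30; edgeR adjusted p = 0.891).

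**Figure D5:**
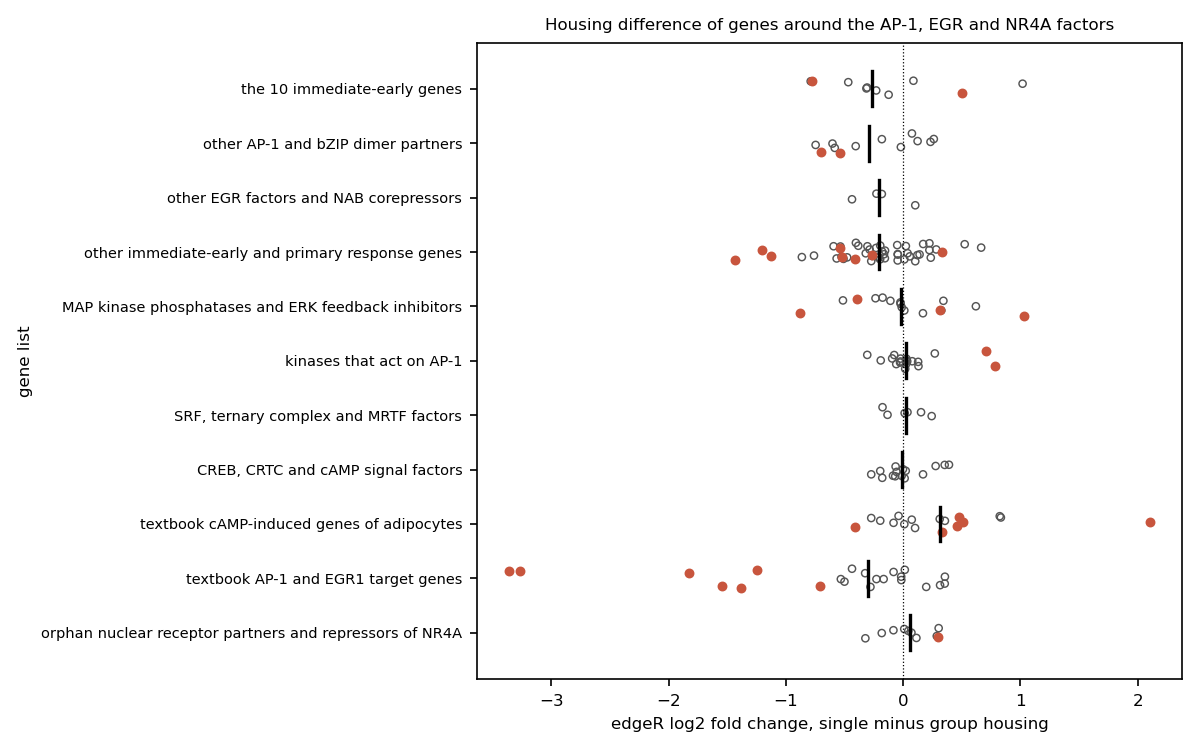
Log2 fold change, single minus group housing, of every tested gene (circles, filled red at an unadjusted p below 0.05) in the 10 immediate-early genes and 10 lists of related genes, with the median as a black bar. The medians run from -0.30 for AP-1 and EGR1 target genes to 0.31 for cAMP-induced genes of adipocytes, and 0 genes passed the adjusted edgeR test.

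Genes that cAMP induces in adipocytes stood on the other side from most of the 10. Of 17 tested, 12 were above 0 and 5 below 0 (median 0.31), where 51.9% of all genes were below 0. An unadjusted p below 0.05 was found for 5 on the high side (background 3.49%) and 1 on the low side (background 3.47%), and edgeR called 0. DESeq2 called 1 (background 1.15%), Ucp1, the uncoupling protein of thermogenic adipocytes (log2 fold change 2.10 ± 0.21; edgeR adjusted p = 0.120). Hk2, a hexokinase, stood at 32.08, 29.88 and 30.16 FPKM under group and 41.13, 34.69 and 43.99 FPKM under single housing (log2 fold change 0.48 ± 0.16; edgeR adjusted p = 0.635). The gene at an unadjusted p below 0.05 on the low side was Per1, a clock gene with a CREB-responsive promoter, at 6.68 ± 0.17 and 4.75 ± 0.89 FPKM (log2 fold change -0.41 ± 0.14; edgeR adjusted p = 0.634). The CREB targets Crem, a repressor of cAMP-induced transcription, and Sik1, a kinase that restrains CREB coactivators, had log2 fold changes of -0.27 ± 0.15 and -0.20 ± 0.12. Crem stood at 3.1, 3.68 and 3.11 FPKM under group housing and at 2.57, 2.55 and 2.59 FPKM under single housing, without overlap (edgeR adjusted p = 0.800). The levels of Sik1 overlapped. Crem, Gadd45g, Per1, Rgs2 and Sik1 are also in the list of other immediate-early and primary response genes, so the counts of these lists share genes.

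Textbook target genes of AP-1 and EGR1 held the lowest log2 fold changes of single genes among the 10 pathway lists. Of 22 tested, 17 were below 0 (median -0.30). None was called by edgeR. An unadjusted p below 0.05 was found for 7, all on the low side (background 3.47%), and DESeq2 called 5, all lower (background 0.714%). This list, like the others, was chosen with earlier results of these data known, so its counts do not test an excess over the background. Mmp3, the stromelysin whose promoter holds a classical AP-1 site, stood at 41.44, 59.28 and 50.06 FPKM under group housing and at 10.67, 13.3 and 15.82 FPKM under single housing. The ranges were far apart, and the log2 fold change was -1.83 ± 0.24 (edgeR adjusted p = 0.120, DESeq2 adjusted p = 6.41e-09). Timp1, an inhibitor of metalloproteinases, and Ccl2, a monocyte chemoattractant, had log2 fold changes of -3.36 ± 0.41 and -3.27 ± 0.46. These genes also have other regulators. A link from the 10 factors to these targets was not tested.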

How the data were processed

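Whole-number counts per gene, not normalized, and FPKM were deposited by the authors for each of the 6 libraries, per the file headers. The deposited FPKM equal the count divided by summed exon length and library total within 0.0051 in 100% of values, so they carry no composition correction. The build is mm39, per the submitters' processing notes. Aligner, counter and strand setting were not given in the sources used here. A further 24 per-sample columns match no sample of the series and were not used.

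Counts were fitted with edgeR 4.0.16 in R 4.3.3 (filterByExpr, TMM, quasi-likelihood F test, two-sided) over 18085 genes, and adjusted by Benjamini-Hochberg over all of them with a threshold of 0.05. An SE was taken as |log2 fold change| over the root of the F statistic. DESeq2 1.42.0 and limma 3.58.1 on log2(FPKM + 1) were alternatives. Log2 CPM used a prior count of 2. Scripts were tested on simulated data. The estimated biological coefficient of variation was 0.265. Library totals were 21410779 to 35318376 counts.

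The 10 genes, the lists and the rules were chosen with earlier results of these data known. Genes named beside the 10 are up to 3 per list at the smallest unadjusted p below 0.05, 8 fixed genes, and the 6 genes of smallest root mean square difference from the mean centred profile among those with a mean FPKM of at least 1. A gene that this rule names is not reported here. Promoters are RefSeq sequences of GRCm38.p6, and their coordinates are not those of mm39. The 18 alternatives covered tool, scaling, filter, pseudocount, block, covariates and libraries left out.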

Additional observations from a re-analysis of the deposited data

How the results depend on the processing

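Over 18 alternative fits, Junb, Jund, Egr1, Nr4a1 and Nr4a3 stayed below 0 and Nr4a2 above 0, as did Fosb in the 16 that tested it. Fosb was not tested in both limma fits with a minimum FPKM. Fos changed direction in 11 fits: -0.068 with library totals only, -0.34 in both limma fits on log2(FPKM + 1), -0.54 with a pseudocount of 0.1, -0.51 with the replicate block, -1.56 without both muscle-rich libraries, and -0.41 and -1.18 with the muscle and B cell marker levels as covariates. Leaving out 1 library at a time gave -1.44 to 0.58 for Fos, -0.29 to 0.026 for Fosl2, -0.43 to 0.020 for Jun and -0.44 to -0.15 for the median of the 10 genes.

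DESeq2 called 207 genes, edgeR without the filter on low counts 53, without both muscle-rich libraries 22, with the muscle covariate 1144 and with the B cell covariate 410. The called genes of the 10 numbered 2 with the muscle covariate and 0 in the other 17 fits. Listed genes called numbered 8 with DESeq2 (background 1.15% of all genes), 4 without the filter (0.159%) and 2 without both libraries (0.117%). They numbered 25 with the muscle covariate (6.33%) and 11 with the B cell covariate (2.27%). In the main fit 7, 3, 1, 21 and 10 of them, in that order, had a log2 fold change below 0. Why the counts differed between fits was not tested.

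Of 10 family shares, 3 had groups apart, 1 as shares of counts, and 3 to 6 with 1 library left out. The single minus group difference then ran from -16.8 to 3.42 percentage points for Fos, -5.62 to 15.02 for Fosl2 (-0.47 as shares of counts) and -1.26 to 6.88 for Jun. With 1 library left out it also ran from -8.92 to -3.56 for Junb, 0.75 to 5.39 for Jund and -9.10 to -2.91 for Nr4a3.

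Same-numbered libraries of the 2 conditions correlated at 0.12, -0.56 and -0.70 in their deviations from group means. The highest correlation, 0.72, was between group-housed library 2 and single-housed library 3, the most muscle-rich ones. Tissue content could thus hide a pairing, and these values cannot tell whether the numbers pair mice. With the replicate block 0 genes and 0 of the 10 were called. Fosb had 25 to 132 counts per library, and its SD of 0.93 log2 CPM exceeded the median of 0.38 for genes of like abundance.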
